A study of Mus musculus with 6 samples.

Results

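The nuclear genes of the mitochondrial respiratory chain and the ATP synthase were taken as every row whose symbol begins with Nduf, Uqcr, Cox4 to Cox8 or Atp5, listed once and marked OK in all 6 libraries. All 86 rows that match these letters met both conditions, of 22160 rows kept in the series. Of them, 77 passed the filter on low values (at least 2 FPKM in at least 2 libraries) and were tested among 10137 genes. FPKM is the number of fragments scaled to transcript length and to the mapped fragments of the library, so levels can be compared between genes. The 86 symbols take in more than structural subunits. Ndufaf1 to Ndufaf4 are assembly factors of complex I, and Cox7a2l is known as a factor that can join complexes III and IV. Ndufa4 is now counted as a subunit of complex IV. The symbols Cox4nb (a subunit of the endoplasmic reticulum membrane protein complex), Atp5s and Atp5sl keep older names and are not subunits of the chain.

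Messenger RNA was profiled in mouse peritoneal macrophages, the phagocytes of the abdominal cavity, from C57Bl/6 mice with the genotype miR-221/222 -/Y (KO) and from wild-type mice (WT). The deletion covers miR-221 and miR-222, which are X-linked, and is not described as limited to any cell type. Tolerized cells had 10 ng/ml LPS for 15 hours, a wash and 2 hours of rest, and then a second dose of 1000 ng/ml over 4 hours. LPS cells had that dose alone, and naive cells had none. Each of the 6 groups of genotype and condition is 1 library. The design text speaks of triplicates, and whether a library pools several animals or cultures is not given in the sources used here.

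Complex I takes electrons from NADH and complex II from succinate, and both pass them to ubiquinone. Complex III hands them on to cytochrome c, and complex IV passes them to oxygen. The proton gradient built on the way drives complex V, the ATP synthase. The subunits come from 2 genomes, and those encoded in mitochondrial DNA are not analysed here. LPS is a bacterial cell wall component sensed by a Toll-like receptor, and mouse macrophages activated with it are known to shift towards glycolysis, to make itaconate and to lower their oxygen use. Tolerance is the weaker inflammatory response to a later dose of LPS.

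The microRNAs removed in the KO mice are shown with their seeds, because the seed is what pairs with a target. Both mature sequences come from RefSeq (GRCm38.p6), lie on the minus strand of the X chromosome, and have bases 2 to 8, the seed, in capitals. They share the seed GCUACAU.
miR-221-3p (chrX:19146307-19146329): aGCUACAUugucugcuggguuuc
miR-222-3p (chrX:19146901-19146923): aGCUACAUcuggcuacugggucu
The matching letters ATGTAGC occurred in the longest annotated 3′ UTR of 1 of the 77 members tested (1.3%), against 1069 of 9825 tested genes with an annotated 3′ UTR (10.9%). The members have short 3′ UTRs, with a median of 235 bases against 1148 bases over the tested genes, and a shorter sequence has fewer chances to hold any 7 letters. The 1 member with a match was Ndufb2, an accessory subunit of complex I. It had 23.4, 34.3 and 71.3 FPKM in tolerized, LPS and naive KO cells, and 30.2, 28.5 and 41.5 FPKM in tolerized, LPS and naive WT cells. Its KO value was the higher of the pair in LPS and naive cells and the lower one in tolerized cells. A match is a description of the letters and not a measured site. Mature microRNAs have no poly-A tail and were not measured, which leaves the KO label without a check here.

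Promoters were searched for 3 motifs known from nuclear genes of mitochondrial proteins, on both strands, from 250 bases before the annotated start to 50 bases after it. RefSeq windows were matched for 66 of the 77 members. The core of the NRF1 site, GCATGCGC, was found in 10 of them (15.2%), against 6.39% of tested genes and 3.05% of all genes with a window. The YY1 core AAGATGGC was found in 11 (16.7%), against 5.9% of tested genes and 3.19% of all genes. The ETS site CCGGAAGT, which GABP can bind, was found in 5 (7.58%), against 10.4% of tested genes and 4.31% of all genes. At least 1 of the motifs stood in 37.9% of member windows, 21% of tested genes' windows and 9.91% of all windows. The 100 bases before the start are printed for some of the genes that hold a motif in this stretch, with its letters in capitals. Ndufa6 and Ndufa8 also hold the NRF1 core there and are not printed. Whether the motifs bear on the values was not tested. Uqcr11 (accessory subunit of complex III) has the ETS site from 66 to 59 bases before the start. Atp5g2 (c ring of complex V) has overlapping NRF1 cores from 42 to 33 bases before it, on both strands. Sdhb (complex II) has the NRF1 core from 54 to 47 bases before it, and Cycs (cytochrome c) from 60 to 53.
Uqcr11 (GRCm38.p6, chr10:80406822-80406921, minus strand): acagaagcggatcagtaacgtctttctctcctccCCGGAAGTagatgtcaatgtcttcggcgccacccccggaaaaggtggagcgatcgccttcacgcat
Atp5g2 (GRCm38.p6, chr15:102671048-102671147, minus strand): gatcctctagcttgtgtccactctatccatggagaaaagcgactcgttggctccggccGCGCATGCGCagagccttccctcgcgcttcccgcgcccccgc
Sdhb (GRCm38.p6, chr4:140961171-140961270, plus strand): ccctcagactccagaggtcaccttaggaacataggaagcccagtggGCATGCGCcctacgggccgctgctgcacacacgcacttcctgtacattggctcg
Cycs (GRCm38.p6, chr6:50566570-50566669, minus strand): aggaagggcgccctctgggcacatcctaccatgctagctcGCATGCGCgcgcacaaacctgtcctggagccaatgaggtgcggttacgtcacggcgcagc

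The scale of the deposited values bears on every comparison between conditions. Of all FPKM, the top 50 rows held 42.3%, 43.1% and 37.5% in tolerized, LPS and naive KO cells, and 45.8%, 45.1% and 34.0% in tolerized, LPS and naive WT cells. The median difference over all 10137 tested genes was -0.76 (log2) in LPS against naive cells, 0.51 in tolerized against LPS cells, -0.22 in tolerized against naive cells and -0.06 in KO against WT cells. Each comparison is therefore given on the deposited values and again after dividing each library by the median, over genes, of its ratio to a shared average profile (factors 0.688 to 1.31), called rescaled. Read counts are not used here, so the depth is unknown. For the 68 members with at least 10 FPKM in every library, the deposited interval of counting error had a median half-width of 6.33% to 8.46% of the value. Many of these genes have processed pseudogenes of near-identical sequence, and how reads matching several places were assigned is not given in the sources used here.

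The members were abundant. Over the 6 libraries, the median of their mean levels was 63.7 FPKM, against 12.9 FPKM over all tested genes. Cox4i1, the common isoform of a nuclear complex IV subunit, had the highest mean, 367 FPKM. It was followed by Atp5b, the catalytic β subunit of complex V, at 352 FPKM and by Cox6b1 of complex IV at 313 FPKM. Atp5s had the lowest mean of those tested, 2.81 FPKM. The medians of complex IV were 118, 135 and 250.1 FPKM in tolerized, LPS and naive KO cells and 136, 167 and 162 FPKM in tolerized, LPS and naive WT cells. Those of complex I were 37.3, 32.9 and 71.3 FPKM in tolerized, LPS and naive KO cells and 39.9, 29.6 and 51.7 FPKM in tolerized, LPS and naive WT cells. Complex I lay below complexes III, IV and V in every library. The other 9 members did not pass the filter. Ndufs5, a complex I subunit used in most tissues, was listed at no more than 0.000209 FPKM in any library, with intervals that start at 0 and reach up to 0.387 FPKM, and such a value can be a failed estimate. Cox4i2, Cox7b2, Cox8b and Cox8c were listed at 0 in all 6 libraries, while Cox6a2, Cox6b2, Cox7a1 and Ndufa4l2 had at most 2.44 FPKM. Apart from Ndufs5, these are alternative isoforms best known from lung, heart, skeletal muscle, testis or hypoxic cells. Their common counterparts Cox4i1, Cox6a1, Cox6b1, Cox7a2, Cox8a and Ndufa4 had at least 102.7 FPKM in every library.

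Together the 86 genes summed to 5570, 5582 and 10969 FPKM in tolerized, LPS and naive KO cells, and to 6447, 6360 and 8438 FPKM in tolerized, LPS and naive WT cells. That is 0.870%, 0.923% and 1.73% of all FPKM in the KO libraries and 0.959%, 0.933% and 1.47% in the WT libraries. Both naive libraries were above the 4 LPS-treated ones, and the naive KO library was the highest. It held the highest value of 71 of the 77 members (92.2%), against 24.6% of all tested genes, and the naive WT library held the other 6. After rescaling, 39 members were highest in naive KO cells, 23 in LPS WT cells, 9 in LPS KO cells, 5 in naive WT cells and 1 in tolerized KO cells. The lowest rescaled value was in tolerized KO cells for 53 members. The matching shares of all tested genes were not computed on rescaled values, so these rescaled counts have no background to be read against.

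**Figure D1:**
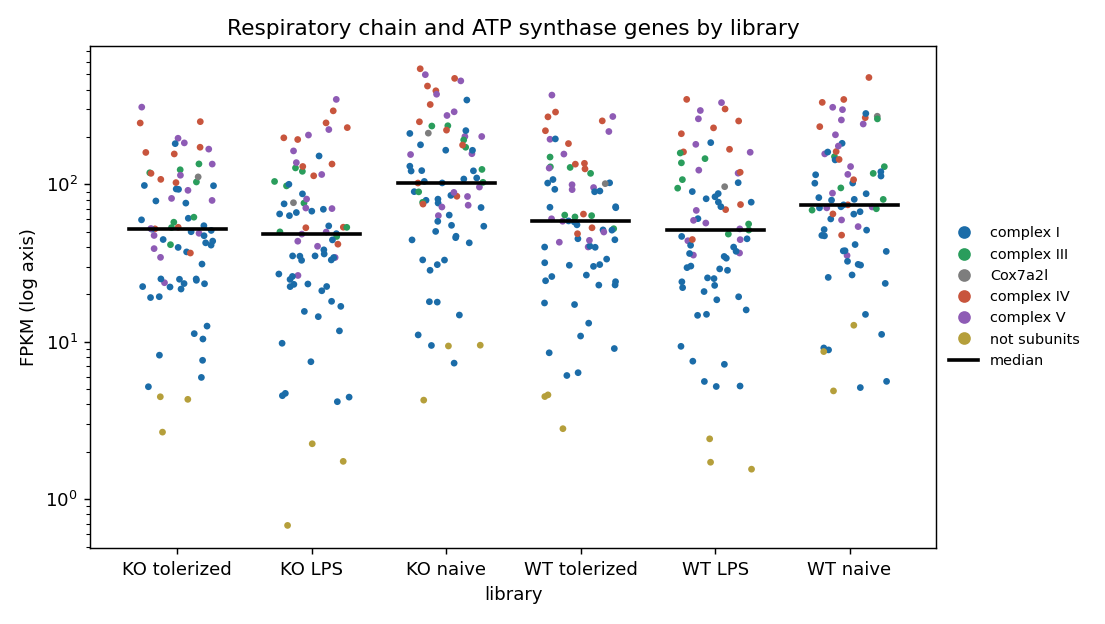
Each point is 1 of the 77 tested genes, with FPKM on a log axis and the 6 libraries across; colours give the complex and the black line the median of the library. The median line is highest in naive KO cells, and naive WT cells come next.

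LPS against naive cells asks how the first dose changed these transcripts. On the deposited values 41 of the 77 members fell and 0 rose (limma with genotype as covariate, Benjamini-Hochberg adjusted p under 0.05). Of all tested genes, 54.4% fell and 8.74% rose. The members' median difference of -0.78 stood beside -0.76 over all genes. At an unadjusted p under 0.05, 46 members were lower and 0 higher, against 6824 of the 10137 tested genes in either direction. After rescaling, 7 members fell and 1 rose, against 24.2% of all genes that fell and 22.6% that rose, and their median was 0.05. The members' median on the deposited values was -0.48 without the naive KO library and -0.66 without the LPS KO library. It was -0.86 without the LPS WT library and -1.05 without the naive WT library. Over all genes the medians in these fits were -0.72, -0.70, -0.81 and -0.79 in that order.

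The complexes differed in how many of their genes passed the test. In complex I, 29 of 39 tested genes fell with LPS, with a median of -0.92 on the deposited values, among them all 7 core subunits. The core subunits hold the flavin and the iron-sulfur clusters, and their differences ran from -0.89 for Ndufv2 to -1.51 for Ndufs7. In complex III, 2 of 8 fell (Uqcr11 and Uqcr10) and the median was -0.54. In complex V, 6 of 15 fell, with a median of -0.62. In complex IV, 0 of 11 fell, 0 were past an unadjusted p of 0.05, and the median was -0.46. By library pair, all 11 were lower after LPS in KO cells (median -0.87). In WT cells 7 were lower and 4 higher (median -0.09). The fit has no interaction, so such a gap between genotypes enters its residual, and 0 of 11 does not mean that none fell. All 3 genes that are not subunits fell, with a median of -1.60. After rescaling, the medians were -0.09 for complex I, 0.30 for complex III, 0.39 for complex IV and 0.22 for complex V, and 4 complex I genes still passed the test as lower. Whether the complexes differ from each other was not tested.

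**Figure D2:**
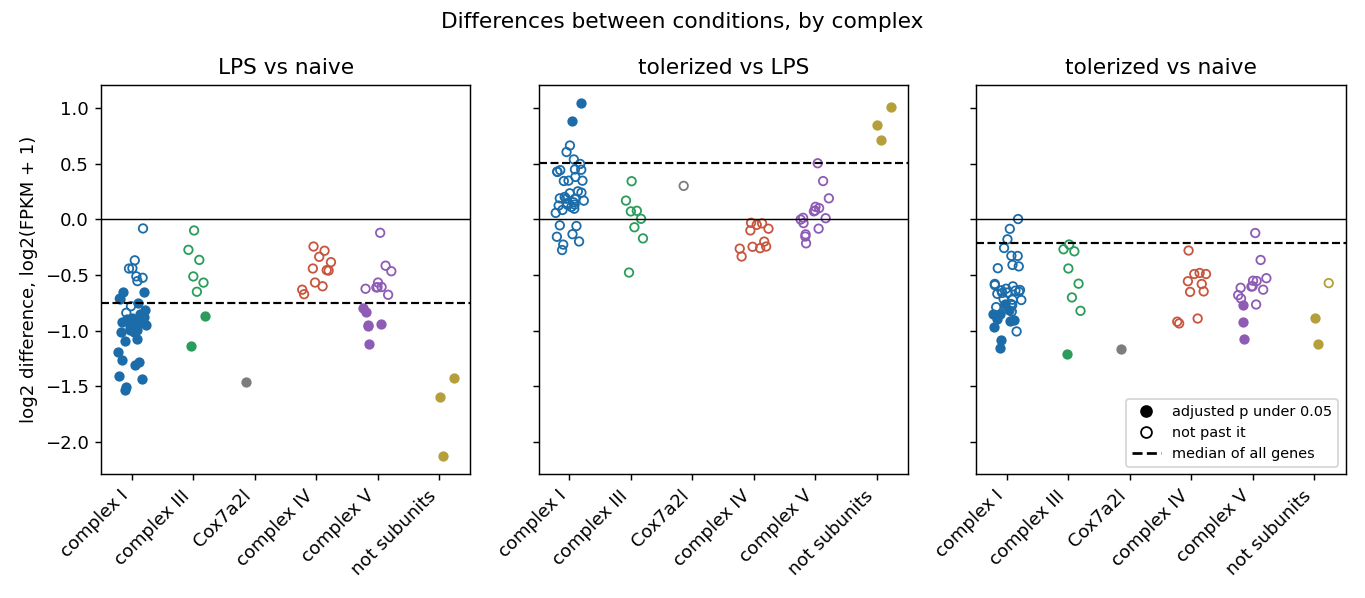
Log2 differences on the deposited scale (y axis) of the 77 tested genes by complex, for the 3 comparisons of conditions; filled points passed an adjusted p of 0.05, open points did not, and the dashed line is the median of all tested genes. The points lie around the dashed line for LPS against naive cells and mostly below it in the other panels.

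Ndufs7, a core complex I subunit with an iron-sulfur cluster next to the ubiquinone site, lies at chr10:79712197-79719537 (mm9). It had 31.2, 24.9 and 80.6 FPKM in tolerized, LPS and naive KO cells, and 33.5, 25.5 and 67.1 FPKM in tolerized, LPS and naive WT cells. The difference of -1.51 ± 0.21 (SE, 2 libraries each) between LPS and naive cells had an adjusted p of 0.0016 with limma. On rescaled values it was -0.68 with an adjusted p of 0.036. Ndufv3, an accessory subunit of the NADH-binding part, had 35.1 and 29.6 FPKM in KO and WT cells after LPS, against 109.9 and 82.5 FPKM in naive KO and WT cells. Ndufb10 and Ndufb11, of the membrane arm, also fell on both scales, with differences of -1.44 and -1.41 on the deposited one.

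Cox7a2l, known as a factor that can hold complexes III and IV together in supercomplexes, lies at chr17:83901257-83913673 (mm9). Whether it does so in these mice was not measured. It had 112, 76.5 and 212 FPKM in tolerized, LPS and naive KO cells, and 101, 96.8 and 271 FPKM in tolerized, LPS and naive WT cells. Its difference between LPS and naive cells was -1.47 ± 0.25 (SE), with an adjusted p of 0.0033 with limma, and -0.62 with an adjusted p of 0.075 on rescaled values. All 4 LPS-treated libraries were below both naive ones.

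Of the genes that are not subunits, Atp5sl and Cox4nb had the largest differences of all 77 members. Atp5sl, whose product takes part in building complex I, had 1.74 and 1.72 FPKM in KO and WT cells after LPS, against 9.41 FPKM in naive KO and 12.7 FPKM in naive WT cells, a difference of -2.13 ± 0.20 (SE). Cox4nb had 2.25 and 2.42 FPKM in KO and WT cells after LPS, against 9.52 and 8.67 FPKM in naive KO and WT cells. Atp5s fell as well, by 1.42 on the deposited scale. All 3 also fell on rescaled values, and none was above 12.7 FPKM in any library, where the added pseudocount makes differences smaller.

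At the other end stood the Rieske iron-sulfur subunit of complex III, Uqcrfs1 (chr13:30632181-30637185, mm9). It had 57.6, 76.1 and 103 FPKM in tolerized, LPS and naive KO cells, and 63.9, 94.7 and 80.3 FPKM in tolerized, LPS and naive WT cells. After LPS it was lower in KO and higher in WT cells than in naive cells of the same genotype. The deposited difference was -0.10 (adjusted p = 0.75 with limma), and the rescaled one was 0.75 with an adjusted p of 0.043, so Uqcrfs1 is the 1 member that rose on that scale. Atp5b had 347 and 331 FPKM in KO and WT cells after LPS, against 455 and 299 FPKM in naive KO and WT cells, and did not pass the test on either scale. Ndufaf4, an assembly factor of complex I, had a difference of -0.08 and did not pass it either.

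The mobile carrier and complex II, which the symbol rule leaves out, moved apart. Cycs, which encodes cytochrome c and carries electrons between complexes III and IV, had 39.8, 43.8 and 26.0 FPKM in tolerized, LPS and naive KO cells, and 41.0, 49.1 and 17.2 FPKM in tolerized, LPS and naive WT cells. All 4 LPS-treated libraries were above both naive ones, and Cycs rose with LPS by 1.10 ± 0.25 (SE; adjusted p = 0.0097 with limma; 1.92 on rescaled values). All 4 genes of complex II fell with LPS on the deposited scale, with a median of -1.09. Sdhb, its iron-sulfur subunit, had 58.7, 53.1 and 164 FPKM in tolerized, LPS and naive KO cells, and 63.0, 45.4 and 130.4 FPKM in tolerized, LPS and naive WT cells. It was the 1 complex II gene that also fell on rescaled values (-0.71, adjusted p = 0.041). Sdhb and Cycs, which hold the NRF1 core printed above, moved in opposite directions. Ndufa6 and Ndufa8, which also hold it, were lower after LPS in both genotypes, like Sdhb. A part of the motif in these values was not tested.

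Of 4 tested genes known to act on the chain in activated macrophages, 3 rose with LPS. The list was picked for genes linked to LPS, so this count is no result beside the 8.74% of all tested genes. AA467197 is the mouse counterpart of human NMES1, whose product is known in human cells to take the place of NDUFA4 in complex IV. It had 421, 790.3 and 40.6 FPKM in tolerized, LPS and naive KO cells, and 201, 651 and 3.67 FPKM in tolerized, LPS and naive WT cells, and rose with LPS by 5.69 ± 0.64 (SE; adjusted p = 8.7e-04 with limma). Ndufa4 itself had 159.7, 229.7 and 422 FPKM in tolerized, LPS and naive KO cells, and 253, 253 and 332 FPKM in tolerized, LPS and naive WT cells. Its LPS-treated libraries were below the naive ones, and it did not pass the test (-0.63, adjusted p = 0.13). AA467197 was above Ndufa4 in LPS cells of both genotypes and in tolerized KO cells, and below it in the other 3 libraries. Irg1, which makes itaconate, an inhibitor of complex II, rose by 4.98, and Nos2, which makes nitric oxide, rose by 5.89. The KO and WT libraries differed in level for both, with 1 library a group, and 0 of the 4 genes passed the test of KO against WT. For Irg1 the KO value was the higher one in tolerized and naive cells and the lower one in LPS cells. Irg1 had 1418, 3050 and 274 FPKM in tolerized, LPS and naive KO cells. In WT cells Irg1 had 985, 3416 and 37.0 FPKM in that order. Nos2 had 304, 225 and 0.453 FPKM in tolerized, LPS and naive KO cells. In WT cells Nos2 had 23.3, 23.5 and 0.0752 FPKM in that order. Hif1a, the fourth gene of this list that was tested, did not pass (-0.54, adjusted p = 0.14).

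The counts of the wider pathway are to be read beside all tested genes, of which 54.4% fell and 8.74% rose with a median of -0.76. Of these lists, 0 of 19 tested genes of the citric acid cycle rose and 12 fell with LPS (median -0.77), among them Idh2 by 2.10. Of 9 tested carriers and uncoupling proteins 6 fell (median -0.86), and Ucp2, the uncoupling protein of macrophages, had 49.4 and 84.9 FPKM in KO and WT cells after LPS, against 200.3 and 395 FPKM in naive KO and WT cells. Of 12 tested genes for assembly and regulation of complexes I and V, 9 fell (median -1.04), among them Tmem126b, a complex I assembly factor, by 2.48. Of 22 tested genes for cytochrome c and the assembly of complexes III and IV, 2 rose (Cycs and Sco1) and 10 fell (median -0.58). The complex IV assembly factor Surf1 fell by 2.11. All 3 tested assembly factors of complex II fell (median -1.35). Of 17 tested genes of mitochondrial transcription and biogenesis, 2 rose (Myc and Gabpb1) and 6 fell (median -0.40). On rescaled values, where 22.6% of all genes rose and 24.2% fell, the counts that rose and fell were 2 and 3 for the citric acid cycle, 1 and 3 for the carriers, 0 and 4 for complexes I and V, 5 and 4 for complexes III and IV, 0 and 0 for complex II assembly, and 4 and 1 for biogenesis. Ppargc1b, a coactivator of mitochondrial genes, was too low for the test, at 0.331 and 0.347 FPKM in KO and WT cells after LPS and 2.48 and 1.40 FPKM in naive KO and WT cells.

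**Figure D3:**
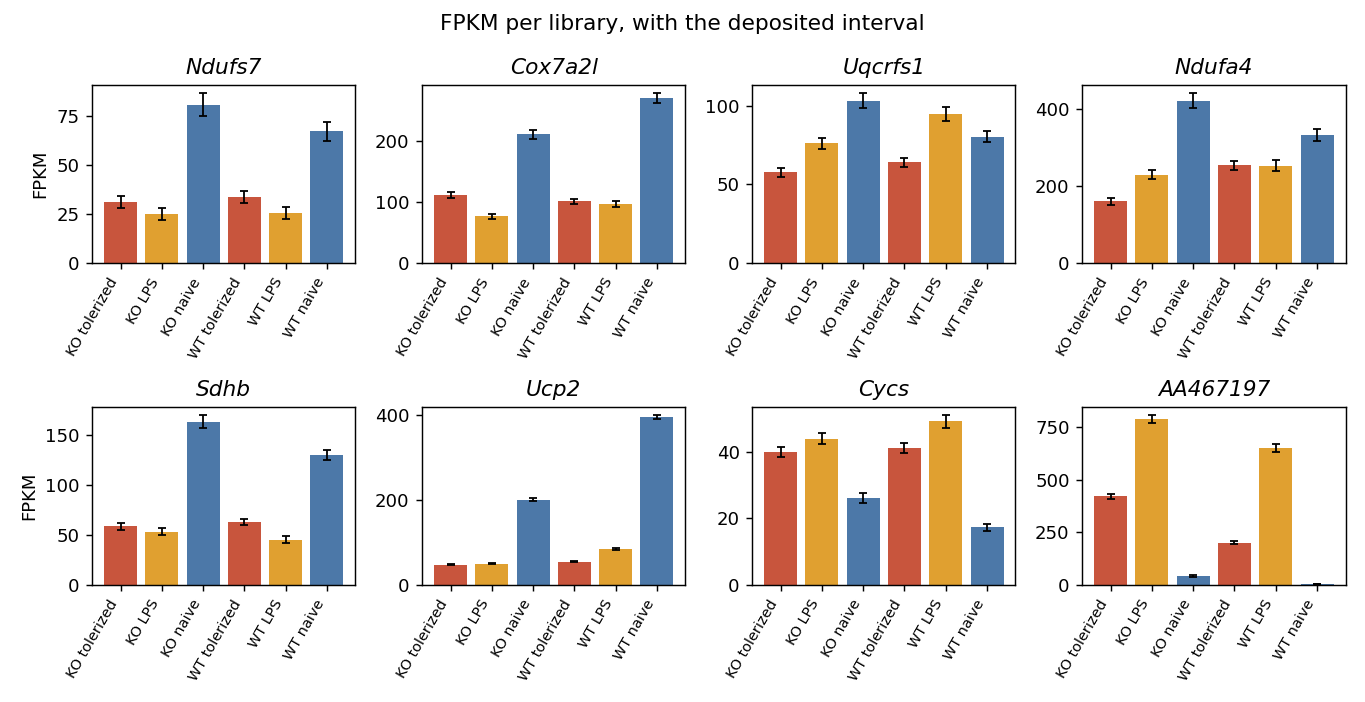
FPKM per library (y axis from 0, 1 panel per gene) with the deposited interval of counting error; KO libraries stand left of WT ones, each as tolerized, LPS and naive. Ndufs7, Cox7a2l, Sdhb and Ucp2 are highest in the naive libraries, and Cycs and AA467197 are lowest there.

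Tolerized against LPS cells asks whether a prior low dose changed the response. On the deposited values 5 members rose and 0 fell, while 36.8% of all tested genes rose and 4.32% fell. The members' median was 0.11, against 0.51 over all genes, and 8 of the 77 lay above the all-gene median. At an unadjusted p under 0.05, 9 members were higher and 0 lower, against 5290 of the 10137 tested genes in either direction. The 5 that rose were the 3 genes that are not subunits and the complex I assembly factors Ndufaf3 and Ndufaf1. No structural subunit of any complex was among them. After rescaling, 0 members rose and 1 fell, against 8.88% of all genes that rose and 9.28% that fell. The member that fell was Uqcrfs1 (-1.08, adjusted p = 0.033 with limma), and the members' median was -0.47. On the deposited values the members' median was 0.27 without the tolerized KO library and -0.01 without the LPS KO library. It was -0.06 without the tolerized WT library and 0.24 without the LPS WT library. Over all genes the medians in these fits were 0.48, 0.46, 0.52 and 0.55 in that order.

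Ndufaf3 had 12.6 FPKM in tolerized KO and 10.9 FPKM in tolerized WT cells, against 4.71 and 5.60 FPKM in KO and WT cells after LPS alone. Ndufaf1 had 10.4 and 8.52 FPKM in tolerized KO and WT cells, against 4.17 and 5.20 FPKM in KO and WT cells after LPS alone. The differences of Ndufaf3 and Ndufaf1 were 1.05 ± 0.25 and 0.88 ± 0.22 (SE), with adjusted p of 0.021 and 0.023 with limma. Counts of assembly genes outside the symbol rule are to be read beside the 36.8% of all tested genes that rose. Of those for complexes I and V, 6 of 12 rose, among them Tmem126b by 1.82. Of those for cytochrome c and complexes III and IV, 5 of 22 rose, among them Surf1 by 1.49, and of those for complex II, 1 of 3 rose. On rescaled values these counts were 1, 1 and 0, and 1 gene for complexes I and V fell. All 11 tested subunits of complex IV had negative differences, from -0.33 for Cox8a to -0.03, and none passed the test on either scale. Cox8a had 156 and 182 FPKM in tolerized KO and WT cells, against 198 and 229 FPKM in KO and WT cells after LPS alone. In complex II 0 of 4 genes rose or fell. In the other lists, 2 of 19 citric acid cycle genes, 2 of 9 carriers, 5 of 17 biogenesis genes and 0 of 4 modifiers rose, and 1 gene, Myc, fell. On rescaled values none of these 4 lists had a gene that rose, and 3 biogenesis genes fell.

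Tolerized against naive cells gives the net difference after both doses. On the deposited values 17 members fell and 0 rose, against 19.7% of all tested genes that fell and 7.41% that rose. The members' median was -0.65, against -0.22 over all genes, and 4 of the 77 lay above the all-gene median. At an unadjusted p under 0.05, 42 members were lower and 0 higher, against 4112 of the 10137 tested genes in either direction. The members' median minus that of all genes, -0.44, depended on the naive libraries. It became -0.16 without the naive KO library and -0.69 without the naive WT library. Of the 17, 10 were complex I genes, 3 complex V, 1 complex III and 0 complex IV, and the others were Cox7a2l, Atp5sl and Cox4nb. After rescaling, 5 fell and 0 rose, against 11.4% and 9.47% of all genes that fell and rose. Those 5 were Uqcr11, Cox7a2l, Ndufs7, Atp5sl and Ndufv3, and the rescaled median was -0.40. All 5 had lower values in both tolerized libraries than in both naive ones. They were picked by a test on these same libraries, so this adds no support. On the deposited values the members' median was -0.47 without the tolerized KO library, against -0.24 over all genes. Without the tolerized WT library it was -0.84, against -0.19 over all genes.

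Uqcr11, an accessory subunit of complex III, had 41.4, 46.7 and 125 FPKM in tolerized, LPS and naive KO cells, and 52.3, 51.3 and 95.0 FPKM in tolerized, LPS and naive WT cells. Its difference between tolerized and naive cells was -1.21 ± 0.25 (SE; adjusted p = 0.019 with limma). Atp5g2, 1 of the 3 genes that encode the same mature c ring protein, fell by 1.07 to 79.1 and 99.6 FPKM in tolerized KO and WT cells, against 202 and 175 FPKM in naive KO and WT cells. The other c ring genes, Atp5g1 and Atp5g3, had differences of -0.60 and -0.63 and did not pass the test. Outside the rule, Cycs rose by 0.90 and AA467197 by 4.39. Atpif1, the inhibitor protein of complex V, fell by 1.56 to 63.8 and 73.4 FPKM in tolerized KO and WT cells, against 213 and 196 FPKM in naive KO and WT cells, and Ucp2 fell by 2.46. Of complex II, Sdhb and Sdha fell. Of all tested genes, 7.41% rose and 19.7% fell. In the lists, the counts that rose and fell were 0 and 5 for the citric acid cycle, 0 and 3 for the carriers, 0 and 2 for complexes I and V assembly, 1 and 4 for complexes III and IV assembly, 0 and 0 for complex II assembly, 2 and 0 for biogenesis and 3 and 0 for the modifiers. On rescaled values they were 0 and 3 for the citric acid cycle, 0 and 1 for the carriers, 0 and 2 for complexes I and V assembly, 1 and 2 for complexes III and IV assembly, 0 and 0 for complex II assembly, 3 and 0 for biogenesis and 3 and 0 for the modifiers. Of complex II, Sdhb alone fell on rescaled values. The modifiers were picked for their link to LPS, so their counts are not read against all genes.

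KO against WT cells asks what the loss of the microRNAs changed. Over the 3 conditions 0 members rose or fell, as for all tested genes (0%), on either scale, and 0 members were past an unadjusted p of 0.05, against 707 of all tested genes. The members' differences ran from -0.27 for Atp5s to 0.22, and the smallest adjusted p was 0.81 with limma. This fit assumes the same genotype difference in every condition, while the members' median over the library pairs ran from -0.20 in tolerized cells to 0.37 in naive cells.

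In naive cells 71 of the 77 members were higher in the KO library and 6 lower, with a median difference of 0.37 (log2), a median fold of 1.29, against a median of -0.03 over all genes. The 6 lower ones were Uqcrh, Atp5sl, Cox7a2l, Ndufb11, Atp5s and Ndufa6. All 11 tested complex IV genes and all 15 complex V genes were higher, with medians of 0.46 and 0.41. No member was at least 2-fold apart in either direction, while 3.95% of all genes with 2 FPKM in either library were at least 2-fold higher and 3.12% lower. Uqcrq, an accessory subunit of complex III, had the largest difference, 0.99, with 235 FPKM in KO and 118 FPKM in WT cells. Atp5g1 reached 63.4 FPKM in KO cells, against 35.4 FPKM in WT cells, and Cox5a, a complex IV subunit, reached 250.1 FPKM in KO cells, against 144 FPKM in WT cells. Uqcrh, the hinge subunit of complex III, had the most negative difference, -0.44, with 192 FPKM in KO and 261 FPKM in WT cells. On rescaled values the counts of 71 and 6 were the same. With 1 library against 1, no test is possible, and a difference between these 2 libraries cannot be told apart from one between the genotypes.

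In LPS cells 15 members were higher and 62 lower in the KO library, with a median of -0.14 against -0.11 over all genes, and on rescaled values 34 were higher and 43 lower. None was at least 2-fold apart, against 4.19% of genes at least 2-fold higher and 3.04% lower. In tolerized cells 9 were higher and 68 lower, with a median of -0.20 against -0.02 over all genes, and on rescaled values 12 were higher and 65 lower. None was at least 2-fold apart there either, against 1.81% of genes higher and 0.763% lower. All 11 complex IV genes and all 15 complex V genes were lower in tolerized KO cells. Atp5g1 had the largest difference there, -0.73, with 23.7 FPKM in KO and 40.1 FPKM in WT cells, and Ndufa4 followed with -0.66. Both had been higher in the KO library among naive cells.

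**Figure D4:**
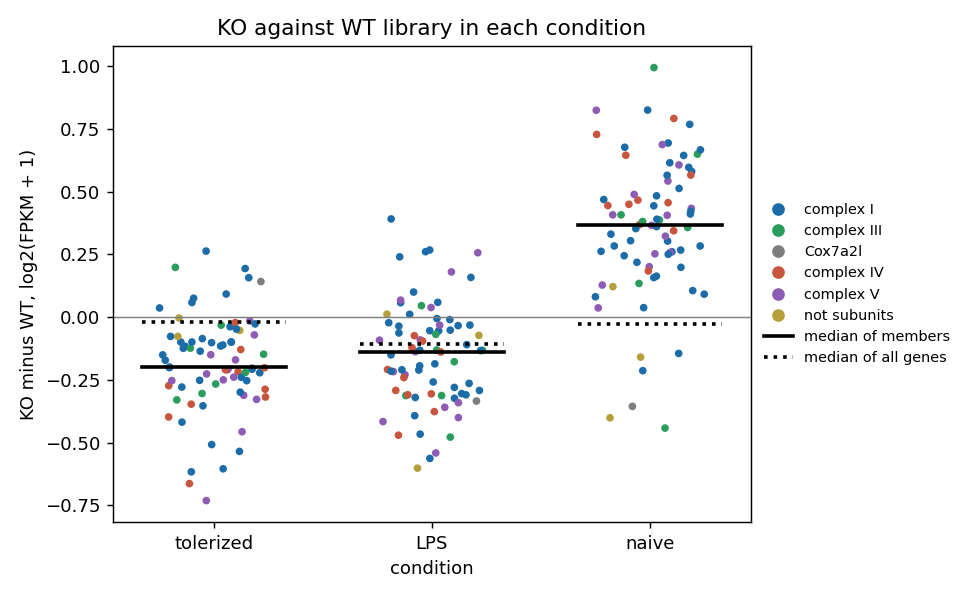
Log2 difference of KO minus WT (y axis, deposited scale) for the 77 tested genes in the tolerized, LPS and naive pair of libraries; solid lines are the members' medians and dotted lines those of all tested genes. The solid line is at 0.37 in naive cells and at -0.14 and -0.20 in LPS and tolerized cells.

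For most members the ratio of LPS to naive cells was lower in KO than in WT cells. On the deposited values the members' median was -1.03 in KO cells and -0.52 in WT cells, and over all genes it was -0.82 and -0.70. All 77 members were lower after LPS in KO cells, and 65 in WT cells. On rescaled values 53 were lower and 24 higher in KO cells, 21 were lower and 56 higher in WT cells, and the medians were -0.15 and 0.27, so the direction in WT cells turned with the scale. The KO ratio lay below the WT ratio in 69 members as deposited and in 66 rescaled. For complex IV the deposited medians were -0.87 in KO and -0.09 in WT cells, and the rescaled ones were 0.03 and 0.70. For complex I they were -1.14 and -0.64 as deposited, and -0.27 and 0.12 rescaled. For tolerized against naive cells, the members' median was -0.93 in KO and -0.33 in WT cells, against -0.22 over all genes in each. Rescaled, the medians were -0.69 and -0.08, and the KO ratio lay below the WT ratio in 70 members on both scales. Both ratios share the naive library of their genotype, and the interaction could not be fitted with 1 library a group. In the fit for LPS against naive cells on rescaled values, the members' median was 0.33 without the naive KO library, against 0.01 over all genes. Without the naive WT library it was -0.20, against -0.02 over all genes.

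Markers of other cells were present beside these results. The 11 macrophage markers in the tables summed to 11819, 18908.5 and 39933 FPKM in tolerized, LPS and naive KO cells, and to 17788, 23624 and 49785 FPKM in tolerized, LPS and naive WT cells, of which Lyz2 gave most. Of the 10 tested, 1 rose and 3 fell with LPS, against 8.74% and 54.4% of all genes. In tolerized against LPS cells 4 rose and 1 fell, against 36.8% and 4.32%. In tolerized against naive cells 2 rose and 4 fell, against 7.41% and 19.7%. On rescaled values these counts were 1 and 2, 1 and 2, and 3 and 4. Unlike the sum, Emr1 was higher in tolerized than in naive cells, at 842 against 393 FPKM in KO and 922 against 431 FPKM in WT cells. The 12 B cell markers were all detected, and summed to 677, 305 and 625 FPKM in tolerized, LPS and naive KO cells, and to 547, 353 and 838 FPKM in tolerized, LPS and naive WT cells. With LPS 6 of the 12 fell, against 54.4% of all genes, and 7 rose in tolerized against LPS cells, against 36.8% of all genes. On rescaled values 4 fell and 3 rose with LPS, and 3 rose in tolerized against LPS cells. Sums of T and NK cell markers (9 of 10 in the tables) were between 13.3 and 42.6 FPKM, those of mast cells and eosinophils (7 of 8) between 76.6 and 133 FPKM, and those of mesothelial cells and fibroblasts (8 of 8) between 4.26 and 30.3 FPKM. Neutrophil markers (9 of 10) summed to between 67.6 and 349 FPKM, most of it S100a8, while S100a9 and Ngp were at 0 in all 6 libraries. The part of other cells in the members' values was not tested, and in such bulk samples fewer cells of a type and less RNA per cell cannot be told apart.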

How the data were processed

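Poly-A RNA libraries of 6 groups, 1 library each, were analysed. The authors deposited FPKM values with intervals per gene and library, made with bcl2fastq 1.8.4, TopHat and Cufflinks on mm9 per the submitters' processing notes. Of 23699 rows, 349 not marked OK in a library, 712 of symbols listed more than once and 804 small RNA rows were left out, so that some rows meet more than 1 reason. The members, lists, named genes and tests were chosen with earlier results of these data known. Named genes were, per tested comparison, the 8 members with the largest difference of each sign, the 4 of each sign per KO and WT pair, core subunits and isoform partners, and fixed pathway genes. Genes reaching 2 FPKM in 2 or more libraries were tested as log2(FPKM + 1) with limma 3.58.1 in R 4.3.3 (trend, two-sided) on condition plus genotype without interaction, with 2 residual and 4.2 prior degrees of freedom, and Benjamini-Hochberg adjustment over all 10137 genes. Each condition has 2 libraries and each genotype 3, so a response seen in 1 genotype alone enters the residual, and the p-values refer to variation among these libraries, which may be technical. Differences are log2 and understate changes of low genes. Library pairs had no test but a rule of at least 2-fold. The alternatives were other scalings, a pseudocount of 0.1, other filters, no trend, no covariate and each library left out. Promoter and microRNA sequences are RefSeq's (GRCm38.p6), and 3′ UTRs are GENCODE's on GRCm38, while gene positions are mm9 as deposited. Figures were drawn with matplotlib 3.10.9.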

Additional observations from a re-analysis of the deposited data

Results flagged for a closer look

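On the deposited values, the genotypes moved in opposite directions by a set margin in 2 cases among the members. Ndufaf4, a complex I assembly factor, was lower after LPS than in naive cells among KO libraries, by a log2 ratio of -0.58, and higher among WT libraries, by 0.42. Rescaled, its ratios were 0.19 among KO and 1.11 among WT libraries, so the signs were no longer opposite. Uqcrq, a complex III subunit, was lower in tolerized than in naive cells among KO libraries, by -0.92, and higher among WT libraries, by 0.34. Rescaled, its ratios were -0.67 and 0.59 and kept opposite signs. With 1 library a group the difference between the genotypes was not tested. Each ratio rests on 2 libraries, and both KO ratios use the naive KO library. Without a size limit, 12 of 77 members had opposite signs in KO and WT cells for LPS against naive cells, 18 for tolerized against LPS cells and 8 for tolerized against naive cells. On rescaled values these counts were 32, 8 and 26. The matching shares of all tested genes were not computed, so none of these counts has a background to be read against.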

How the results depend on the processing

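No paired analysis was possible because each group has 1 library and the labels carry no replicate numbers. For LPS against naive cells, the 41 members that fell became 7 rescaled by median of ratios, 15 rescaled by upper quartile, 19 to 64 with 1 library left out, and 2 rescaled without either naive library; the 0 that rose became 1 rescaled and 11 rescaled without the naive KO library. The members' median minus that of all genes, -0.03, became -0.40 with no filter and 0.32 rescaled without the naive KO library. It ran from -0.26 to 0.24 with 1 library left out. Rescaling turned the sign of 43 of the 77 members, all negative as deposited, 7 of which had passed the test as lower. The genes named by rule that turned sign and passed the test on either scale were Ndufc1 (0.0093), Ndufs6 (0.12), Sdhc (0.073) and Uqcrfs1 (0.75). For tolerized against LPS cells, the 5 that rose became 0 rescaled and 1 by upper quartile. Of all tested genes, 900 and 2072 rose on these scales. The 5 became 0 with no filter and 2 with at least 10 FPKM in 2 libraries. Among all genes in those settings, 2270 of 16686 and 2046 of 6727 rose. The 0 that fell became 1 rescaled and 16 rescaled without either naive library. The median minus that of all genes, -0.40, became -0.10 with no filter and ran from -0.58 to -0.21 with 1 library left out. For tolerized against naive cells, the 17 that fell became 5 rescaled, 9 by upper quartile, 6 with no filter, 2 to 23 with 1 library left out, and 2 and 1 rescaled without the naive KO and naive WT library. Members that rose and fell in KO against WT stayed at 0 and 0 under every alternative run, and 1 member, Uqcrq, was at least 2-fold higher in naive KO cells when rescaled. The pseudocount, the trend and the covariate left each of these counts within 1.5 times. Fits with 1 library left out leave a condition with 1 library, assumed to vary like the others. The 2 settings that rescale and leave out a naive library were chosen after seeing the data, and the causes were not tested. Depth is unknown.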
